A study of Mus musculus with 4 samples.

Results

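Naive-like cells were sought among the hepatic CD4+ T cells, and 837 cells met the rule, 568 of the library labelled WT and 269 of that labelled dKO, among 28018 cells (10556 and 17462) that had over 200 genes and less than 5% mitochondrial UMIs. The rule reads raw counts of unique molecular identifiers (UMIs, each standing for 1 captured RNA molecule). A member had at least 1 UMI of *Ccr7*, at least 1 of *Lef1* and at least 1 of *Cd3d*, *Cd3e* or *Cd3g*. It had no UMI of *Foxp3*, *Nkg7*, *Cxcr6*, *Ifng*, *Il17a*, *Fasl*, *Siglech* or *Lyz2*. The cells were therefore chosen by measured values, and nothing that the rule read is given as a finding.

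The animals were male WT mice and male mice with Nr4a1 fl/fl and Nr4a2 fl/fl alleles and a Cd4-Cre transgene (dKO), in which the Cd4 promoter drives Cre in T cells. Both groups were fed a choline-deficient diet (CD; 60 kcal% fat, 0.1% methionine) for 8 weeks, which gives a model of fatty liver disease with steatohepatitis. CD4+ T cells sorted from the livers of 2 pooled mice per genotype were captured with a 5′ droplet kit for RNA and for T cell receptor (TCR) sequencing. The age of these mice was not given in the sources used here. Each genotype is 1 library without replicates, and the 2 mice of a pool cannot be told apart, so the genotypes were not tested against each other. The parentheses hold exact 95% intervals (Clopper-Pearson for percents of cells, Poisson for levels and conditional binomial for log2 ratios of levels) and reflect counting error alone.

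Naive CD4+ T cells have left the thymus but have not yet met their antigen. They circulate between blood and lymph nodes, guided by the chemokine receptor Ccr7, and leave the nodes along a gradient of sphingosine 1-phosphate. The transcription factors Lef1, Tcf7, Klf2, Foxp1, Bach2 and Satb1 keep them quiescent, interleukin 7 keeps them alive, and each usually carries a receptor that few other cells share. In the liver they are a minority beside memory, effector and regulatory T cells.

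The first genes read were the targeted ones, since they bear on the labels. Levels are in counts per 1000000 UMIs of a set of cells (CPM). *Nr4a1* (chromosome 15 of GRCm38, 101254269 to 101274795, plus strand), an orphan nuclear receptor induced by antigen receptor signals, had 345 CPM in naive-like cells labelled WT and 928 CPM in those labelled dKO, a log2 ratio of 1.43 (1.24 to 1.62). *Nr4a2* (chromosome 2, 57106830 to 57124003, minus strand), its close relative, had 88.7 and 123 CPM, a log2 ratio of 0.47 (-0.00 to 0.92). Both values go against the label, and the same held in the other T cells, with log2 ratios of 1.35 and 1.07. In the cells with a *Siglech* UMI and no *Cd3* UMI (Siglech+ Cd3-), *Nr4a1* had 611 and 1268 CPM and *Nr4a2* 25.2 and 46.9 CPM, so both were higher labelled dKO there as well. *Foxp3*, the factor that defines Tregs, had 57.6 and 272 CPM in the other T cells. *Ifng* had 277 and 86.2 CPM there, and *Il17a* had 111 and 208 CPM. For dKO livers on this diet the paper reports more Foxp3+ and fewer IFN-γ+ and IL-17a+ CD4+ cells. Those are percents of cells by flow cytometry, with the cytokines stained after stimulation, which is a measure unlike the RNA levels here. In its single-cell data the paper also reports a larger share of its Treg_Foxp3 cluster and a smaller share of its Th1/CTL cluster in dKO. *Foxp3* and *Ifng* RNA thus ran the way the labels say, and *Il17a* RNA the other way. Whether the labels were exchanged was not tested. Counts per gene do not show exons, and RNA of alleles without the floxed exons cannot be told apart from RNA of the intact gene. The genotypes are for this reason called by their library labels.

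The members had 1352195 and 496937 UMIs in total, with medians of 2131 and 1725 UMIs per cell in the libraries labelled WT and dKO, against 1689 and 1365 UMIs in the other T cells. Other T cells here are all cells with a *Cd3* UMI and no *Siglech* or *Lyz2* UMI that were not members, 6877 and 11162 cells. Ribosomal protein genes took 33.2% and 33.1% of the UMIs of the members and 21.4% and 19.97% of those of the other T cells. Of the filtered barcodes, 242 occurred in both libraries, none of them a member in both. A count of 3 UMIs, taken as the floor, was 2.22 CPM in the members labelled WT and 6.04 CPM in those labelled dKO.

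Markers of other cells in the members were low for most types, and the lists of regulatory T cell (Treg), plasmacytoid dendritic cell and macrophage genes had the largest sums. *Cd8a* had no UMI in either library, and *Cd8b1* had 12.6 and 6.04 CPM. The summed CPM was 0.740 and 0 for 6 hepatocyte genes, 0.740 and 0 for 3 neutrophil genes, 0.740 and 4.02 for 4 endothelial genes, and 23.7 and 2.01 for 4 B cell genes. It was 2.22 and 6.04 for 4 genes of NK and NKT cells and 76.2 and 52.3 for 8 macrophage genes, which had 67.3 and 86.1 in the other T cells. The 6 genes of plasmacytoid dendritic cells summed to 35.5 and 175 CPM, against 54.1 and 102.3 CPM in the other T cells, and a single cell of the library labelled dKO held 52 of the 55 UMIs of *Klk1* there. The 10 Treg genes summed to 428 and 1048 CPM in the members, against 1497 and 4653 CPM in the other T cells. Doublets marked by score or by a second TRB chain were 30 (5.28%) of the members labelled WT and 25 (9.29%) of those labelled dKO, and they were kept.

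Naive-like cells made up 7.63% (7.04 to 8.26) of 7445 T cells labelled WT and 2.35% (2.08 to 2.65) of 11431 T cells labelled dKO. The share labelled dKO was lower by 5.28 percentage points, and the ratio of the shares was 3.24. Because a deeper cell is more likely to show 1 UMI of each gene, the filtered cells with at least 1000 UMIs were also thinned to 1000 UMIs, which gave 4.69% and 1.71%, a ratio of 2.74. This left out 1929 cells labelled WT and 3071 labelled dKO, 29 and 25 of them members. At 2000 UMIs the shares were 9.42% and 2.40%, a ratio of 3.93, with 6375 and 10144 cells left out, 244 and 194 of them members, so these shares are of deeper cells only. The ratio lay between 2.74 and 3.93 over the 9 ways of counting. The intervals cover counting error within 1 library of each genotype, and the difference between the genotypes has no replicate and no test. The *Ccr7* and *Lef1* levels of the other T cells also differed between the libraries, and their part in the ratio was not tested.

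**Figure D1:**
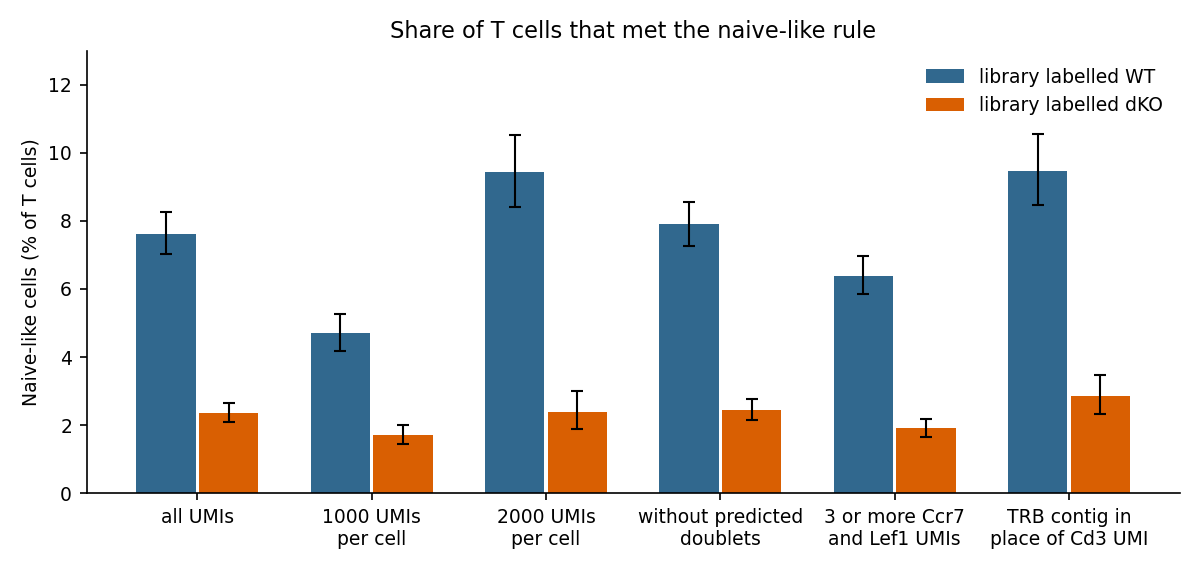
Bars give naive-like cells as a percent of T cells in both libraries under 6 ways of counting, and lines give exact 95% intervals. The bar labelled WT is above the bar labelled dKO in each, from 4.69% against 1.71% after thinning to 1000 UMIs to 9.47% against 2.86% where a TRB contig replaced the *Cd3* UMI.

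Before the exclusion genes were applied, 887 T cells (11.9%) labelled WT and 428 (3.74%) labelled dKO had a UMI of both *Ccr7* and *Lef1*. The exclusion genes removed 35.96% and 37.1% of them. *Nkg7*, a gene of cytotoxic granules, was found in 19.1% and 16.6% of these cells, and *Cxcr6*, a chemokine receptor of liver-resident T cells, in 17.2% and 14.0%. *Foxp3*, the defining factor of Tregs, was found in 4.06% labelled WT and 15.7% labelled dKO. *Fasl*, a death ligand of effector cells, was found in 11.95% and 2.80%, and *Ifng* in 10.3% and 4.44%.

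The rule genes themselves are given as values only. *Ccr7* (chromosome 11, 99144196 to 99155077, minus strand) had 1113 CPM in the members labelled WT and 1415 CPM in those labelled dKO, and *Lef1* (chromosome 3, 131110471 to 131224356, plus strand) had 1159 and 990 CPM. In the other T cells *Ccr7* had 138 and 80.0 CPM and *Lef1* 202 and 87.6 CPM. Cells just inside the rule, with 1 UMI of each gene, were 92 (16.2%) of the members labelled WT and 51 (18.96%) of those labelled dKO. Cells with 5 or more UMIs of the pair were 275 and 106. Just outside the rule, 260 and 251 cells had *Ccr7* but no *Lef1* UMI, and 430 and 311 cells had *Lef1* but no *Ccr7* UMI, with the same exclusions.

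Part of the naive programme outside the rule was more abundant in naive-like cells than in the other T cells of the same library, such as 2.02-fold for *Klf2* and 7.52-fold for *Igfbp4* labelled WT, while *Cd28* was lower in both libraries. This is a description, since the rule chose the cells, and it carries no test. A gene is called higher or lower where it was past 2-fold in the same direction in both libraries, among the 3138 genes with at least 50 CPM in the higher group of each. Of all these genes, 61 (1.94%) were called higher and 245 (7.81%) lower, so 19.9% of the calls were higher, and 33.6% with ribosomal protein UMIs left out of the totals. The median log2 ratio, naive-like over other T cells, was -0.25 in both libraries. Of the markers named for this cell type, *Tcf7*, *S1pr1* and *Dapl1* are not in the rule, and all 3 were called higher. The cells that the rule excluded stay among the other T cells, so this is no independent support for the label naive-like.

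*Igfbp4* (chromosome 11, 99041244 to 99054392, plus strand), a binding protein of insulin-like growth factors that marks resting naive CD4+ T cells, had 487 CPM in the members labelled WT and 559 CPM in those labelled dKO, against 64.8 and 22.2 CPM in the other T cells. Its log2 ratios were 2.91 (2.76 to 3.05) and 4.65 (4.43 to 4.87), so its level differed less between the libraries in the members than in the other T cells. *Dapl1* (chromosome 2, 59484653 to 59505020, plus strand), a marker of resting T cells, had 135 and 248 CPM in the members and 19.7 and 9.70 CPM in the other T cells. Both genes were thus over 6-fold higher in the members of each library.

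Of a list of 16 further genes of the naive signature, which holds *Tcf7*, *Dapl1* and *Igfbp4*, 13 passed the filter, 10 were called higher and none lower. Their median log2 ratios were 1.44 labelled WT and 2.27 labelled dKO. *Tcf7* (chromosome 11, 52252371 to 52283014, minus strand), the partner of *Lef1* downstream of Wnt signals, had 580 CPM (579.8) and 662 CPM in the members and 256 and 114 CPM in the others. *Actn1*, an actin crosslinker, had 190.1 and 177 CPM in the members and 37.0 and 14.7 CPM in the others. *Ly6c1*, a surface protein of resting lymphocytes whose reads may be shared with its near-identical neighbour, had log2 ratios of 2.49 and 3.62. *Nsg2*, *Trib2*, *Txk*, *Ssbp2* and *Dgka* were also called higher, with log2 ratios of 2.16 and 2.77 for *Nsg2* and 1.01 and 1.35 for *Dgka*, an enzyme that removes the second messenger diacylglycerol. The 3 that were not called were *Cd28*, the costimulatory receptor, with log2 ratios of -0.44 and -0.53, *Ramp1*, with 0.22 and -0.83, and *Cd27*.

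Of the 16 quiescence regulators, 15 passed the filter, 5 were called higher and none lower, with medians of 0.67 and 0.56. *Satb1* (chromosome 17, 51736187 to 51833290, minus strand), an organiser of chromatin, had 1014 and 851 CPM in the members and 237 and 135 CPM in the others. *Bach2*, a repressor of effector differentiation, had 730 CPM (729.9) and 602 CPM against 241 and 123 CPM, and *Foxp1*, which holds naive T cells at rest, had 788 and 608 CPM against 275 and 144 CPM. *Klf2*, which drives the expression of *S1pr1*, had 1501 and 1791 CPM in the members and 742 and 547 CPM in the others, and its log2 ratio labelled WT, 1.02, was just past the limit for a call. *Pik3ip1*, an inhibitor of PI3 kinase, had log2 ratios of 2.09 and 3.05. *Btg1*, which with *Btg2* holds T cells at rest by RNA decay, had log2 ratios of 0.24 and 0.21, and *Btg2* of -0.45 and -0.41. *Zfp36l2*, of a family of RNA-binding proteins that promote RNA decay, had -1.004 labelled WT and 0.09 labelled dKO.

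Among the 10 genes of homing and recirculation, 9 passed, 2 were called higher, *S1pr1* among them, and none lower, with medians of -0.27 and -0.15. *S1pr1* (chromosome 3, 115710433 to 115715072, minus strand), the receptor through which T cells leave tissue, had 362 CPM in the members of each library and 150.5 and 90.5 CPM in the others. *Rasgrp2*, an activator of integrin adhesion, had log2 ratios of 0.75 and 1.14, and *Itga4*, an integrin chain of tissue-homing cells, had -1.18 and -0.87. *Itgal*, a chain of the integrin LFA-1, had -1.03 and -0.67, and *Itgb7*, a chain of gut-homing integrins, had -0.62 and -0.55. Of the 16 cytokine receptor and survival genes 15 passed, 3 were called higher and 1 lower. The 3 were *Il6ra*, *Il6st*, its partner in interleukin 6 signalling, and *Il4ra*. *Il6ra* had 152 and 86.5 CPM in the members against 45.9 and 18.5 CPM in the others. *Il7r*, the receptor of interleukin 7, had 720.3 and 778.8 CPM against 477 and 359 CPM, which was below 2-fold labelled WT. *Cish*, an inhibitor of cytokine signals that STAT5 induces, was the gene called lower, with 22.2 and 36.2 CPM against 211 and 208 CPM.

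**Figure D2:**
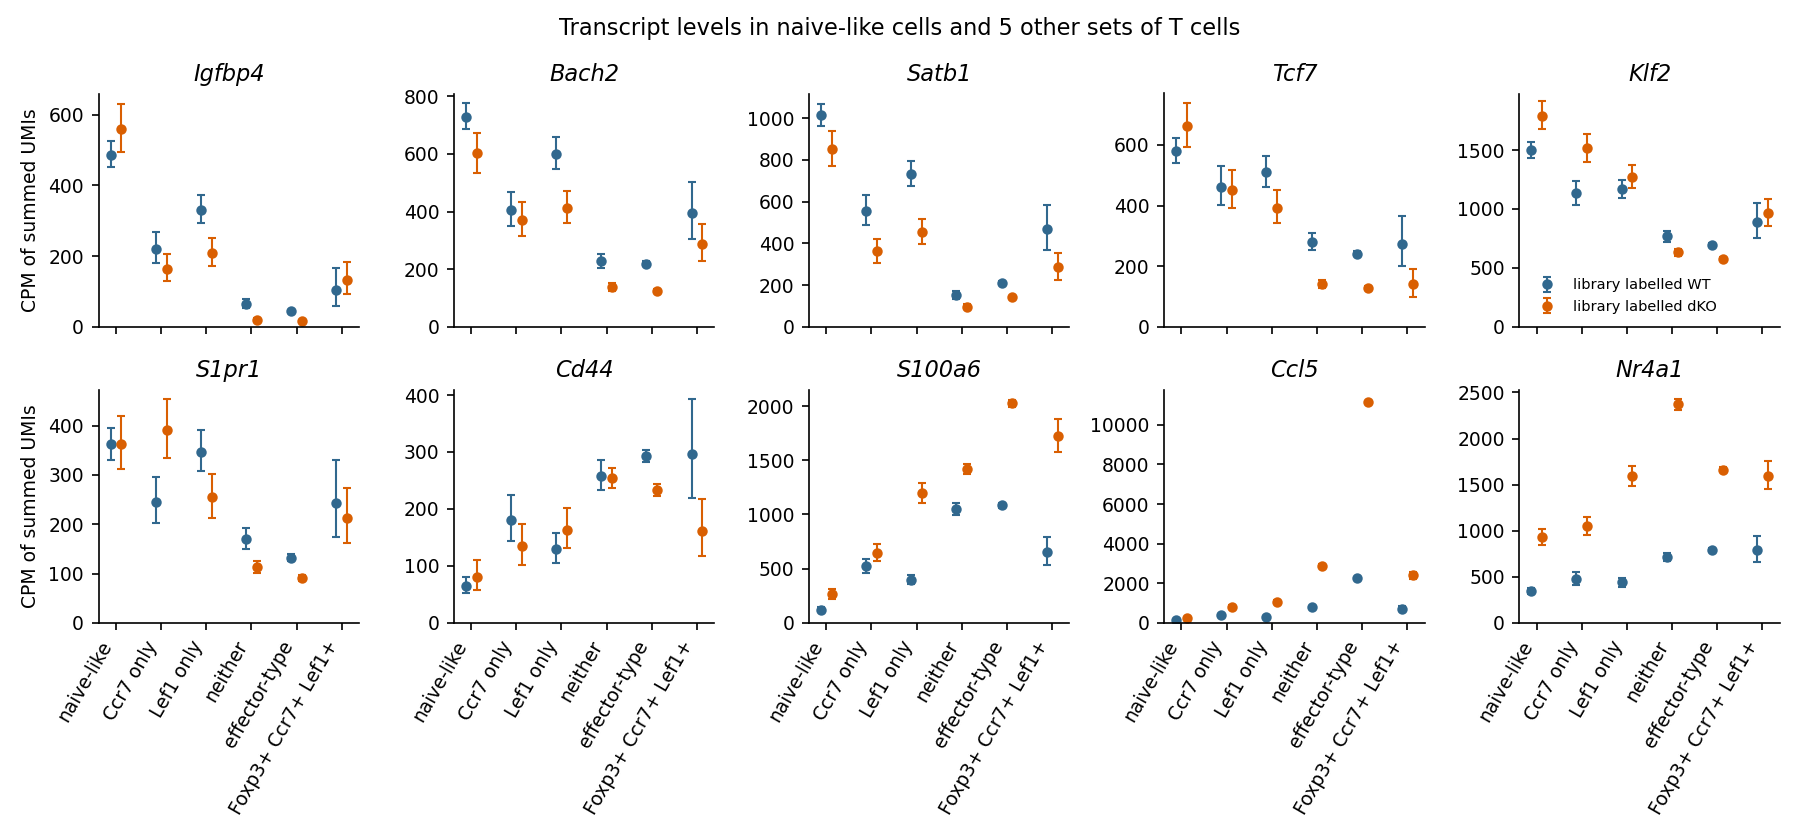
Points give the CPM of 10 genes (linear axes from 0) with exact 95% intervals in naive-like cells, in 4 sets of T cells just outside the rule or with effector genes, and in Foxp3+ Ccr7+ Lef1+ cells, for each library. *Igfbp4*, *Bach2*, *Satb1* and *Tcf7* are highest at the left, in the naive-like cells, while *S100a6*, *Ccl5* and *Nr4a1* are lowest there, and *Igfbp4* labelled WT goes from 487 CPM to 43.5 CPM in effector-type cells.

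Most of the genes of activation, memory and effector function that passed the filter were lower in the members. Of the 17 activation and memory genes all passed the filter, 15 were called lower and none higher, with medians of -2.66 and -1.81. *Cd44*, the adhesion receptor by which memory cells are usually gated, had 65.1 and 80.5 CPM in the members and 280 and 239 CPM in the others. *S100a4*, a calcium-binding protein of memory cells, had 69.5 CPM labelled WT and 173 CPM labelled dKO, against 830.3 and 873 CPM. *S100a6*, of the same family, had 123 and 264 CPM against 1076 and 1929 CPM. *Ccr2*, a receptor for inflammatory chemokines, had log2 ratios of -3.62 and -3.54. *Crip1* and *Itgb1* were the 2 that were not called, with 1 of the 2 libraries below 2-fold in each.

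Of the 23 effector genes, 11 passed the filter, 10 were called lower and none higher. *Ccl5*, a chemokine of effector and memory T cells, had 126 and 268 CPM in the members and 1811 and 6907 CPM in the others. *Xcl1*, a chemokine of activated T cells, had 3.70 and 6.04 CPM, close to the floor, against 204 and 62.2 CPM. *Tbx21*, the factor of Th1 cells, had log2 ratios of -3.80 and -3.08, and *Bhlhe40*, a factor of inflammatory T cells, of -3.27 and -2.39. *Cd40lg*, the helper ligand for B cells, was the gene not called, with 261 and 127 CPM in the members and 466 and 103.6 CPM in the others. Of the 8 checkpoint and costimulation genes 5 passed and 4 were called lower, and *Icos* missed the limit labelled dKO, with log2 ratios of -1.46 and -0.86. *Rgs1*, a brake on chemokine receptors in tissue-resident cells, had 217 and 219 CPM against 1312 and 935 CPM.

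The genes that the naming rule took from the whole table largely came from outside these lists. At the higher end stood *Pdlim4*, a protein of the actin cytoskeleton with log2 ratios of 2.67 and 4.19, and *Atp1b1*, a subunit of the sodium pump with 97.6 and 82.5 CPM against 18.99 and 6.11 CPM. *Ifngr2*, the second chain of the interferon gamma receptor, had 186 and 201 CPM in the members and 38.0 and 22.5 CPM in the others. *St8sia6*, a sialic acid transferase, and *Tubb2a*, a tubulin, stood there with *Igfbp4*, *Dapl1*, *Ly6c1* and *Actn1*. At the lower end, *Hip1*, an endocytic adaptor, had 2.96 and 4.02 CPM against 70.5 and 103 CPM. Its level labelled dKO is 2 UMIs, under the floor of 6.04 CPM, and its log2 ratio there was -4.68 (-7.72 to -2.82). Also there were *Lilr4b* and *Lilrb4a*, near-identical inhibitory receptors whose reads may be split between them, *Ccl5*, *Ccr2*, *Xcl1*, *Serpina3g*, *Fam110a* and *Zeb2*. *Zeb2*, a factor of terminal effector cells, had log2 ratios of -3.11 and -4.72.

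**Figure D3:**
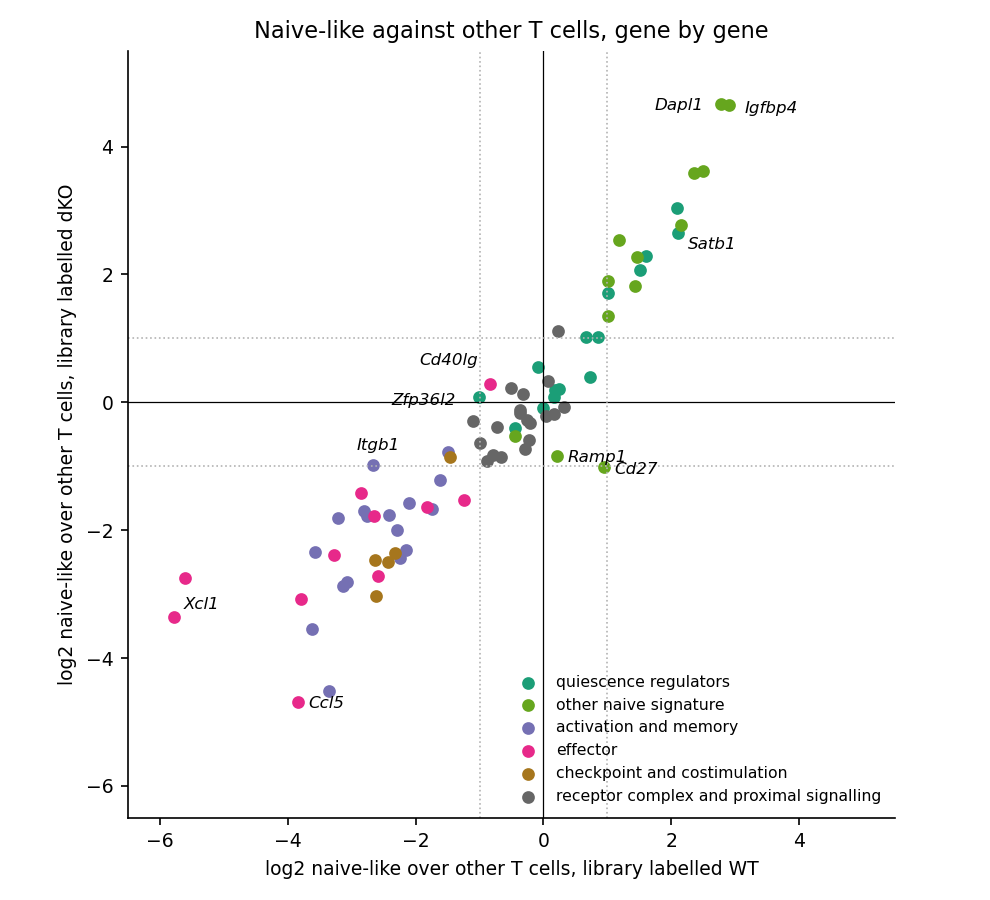
Each point is a gene of 6 lists, placed by its log2 ratio of CPM, naive-like over other T cells, in cells labelled WT (horizontal) and dKO (vertical); dotted lines mark 2-fold. Most naive signature genes lie in the upper right, with *Igfbp4* at 2.91 and 4.65, but *Cd28* lies at -0.44 and -0.53; most activation and effector genes lie in the lower left, but *Cd40lg* lies at -0.84 and 0.29, and no gene of the receptor complex was called.

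Lists tied to recent receptor signals were read next. Of the 23 immediate early genes 19 passed, 5 were called lower and none higher, with medians of -0.86 and -0.35. *Nr4a1* had log2 ratios of -1.16 labelled WT and -1.08 labelled dKO between the members and the other T cells, and *Nr4a2* had -1.24 and -1.85. *Nr4a3*, the family member that was not targeted, had 155 and 183 CPM in the members against 314 and 297 CPM. *Dusp1* and *Dusp2*, phosphatases that switch off MAP kinases, were called lower with *Nr4a1*, *Nr4a2* and *Nfkbia*, the inhibitor of NF-κB. *Cd69*, an early activation antigen that retains T cells in tissue, had 227 and 175 CPM against 416 and 224 CPM. *Jun* went the other way and stayed below 2-fold, with 872 and 682 CPM against 441 and 376 CPM.

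Of the 19 genes of the receptor complex and proximal signalling all passed, and none was called in either direction. *Lck*, the kinase that starts the receptor signal, had log2 ratios of -0.22 and -0.59, and *Lat*, the adaptor that assembles the signal, had -0.32 and 0.13. Of 25 interferon response genes 14 passed, and *Isg15*, *Isg20*, *Gbp7* and *Ly6a* were called lower. Of 14 genes of glycolysis and glucose handling 11 passed, and *Hk1* and *Tpi1*, enzymes of glycolysis, were called lower. The gene called higher was *Txnip*, an inhibitor of glucose uptake, with 401 and 451 CPM against 182 and 180.0 CPM. Of 8 cell cycle genes 6 passed, and *Mki67*, *Top2a*, *Pclaf* and *Birc5* were called lower. Of these, *Mki67*, *Top2a* and *Pclaf* turned in the library labelled dKO, to log2 ratios of 0.26, 0.17 and 0.58, where cells with neither *Ccr7* nor *Lef1* stood for the other T cells.

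The shares of cells with a UMI gave the same order at an even depth of 1000 UMIs per cell, which 29 members labelled WT and 25 labelled dKO did not reach. *Igfbp4* was found in 32.3% and 36.5% of members and in 4.70% and 1.57% of other T cells. In Siglech+ Cd3- cells, which should lack it and had median depths of 1537 and 2901 UMIs, the share was 0.497% and 0%. Without thinning, *Igfbp4* was found in 46.1% and 40.9% of the members. *S1pr1* was found in 27.8% and 31.6% of thinned members, 12.9% and 7.73% of other T cells, and 0.497% and 0.0656% of the Siglech+ Cd3- cells. *Tcf7* was found in 41.0% and 48.0%, 21.5% and 9.94%, and 2.86% and 0.0984%. A UMI of *Cd44* was found in 5.57% and 5.74% of thinned members, and in 21.5% and 19.9% of other T cells.

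*Igfbp4* was graded from the members through the cells just outside the rule. It had 487 CPM labelled WT and 559 CPM labelled dKO in members. It had 331 and 209 CPM in cells with *Lef1* only, 221 and 164 CPM in cells with *Ccr7* only, and 64.6 and 19.1 CPM in cells with neither. Effector-type cells, which had a UMI of *Nkg7*, *Cxcr6*, *Ifng*, *Il17a* or *Fasl* and none of *Foxp3*, had 43.5 and 15.04 CPM. *S100a6* had the reverse order labelled WT, with 123 CPM in members, 397 CPM with *Lef1* only, 520.2 CPM with *Ccr7* only, 1052 CPM with neither and 1084 CPM in effector-type cells. Labelled dKO the order of the *Ccr7* only and *Lef1* only sets differed, with 264 CPM in members, 644.5 CPM with *Ccr7* only, 1193.5 CPM with *Lef1* only, 1419 CPM with neither and 2025 CPM in effector-type cells. *S1pr1* labelled dKO had 391.7 CPM with *Ccr7* only and 362 CPM in the members. The 36 and 67 cells with UMIs of *Foxp3*, *Ccr7* and *Lef1* together had 103 and 133 CPM of *Igfbp4* and 655 and 1724 CPM of *S100a6*.

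The members were not uniform. In the library labelled WT, members with 5 or more UMIs of *Ccr7* and *Lef1* together had 1161 CPM of *Satb1*, against 577 CPM in those with 1 UMI of each. *S100a6* was the reverse, with 73.0 CPM in the former and 306 CPM in the latter, and so were *Lgals1*, a galectin of activated cells, with 173 and 589 CPM, and *Tnfrsf4*, the costimulatory receptor OX40, with 33.3 and 159 CPM. *Tcf7* differed less, with 575 and 483 CPM. In the library labelled dKO the same split gave 994 and 596 CPM of *Satb1*, 618 and 292 CPM of *Igfbp4*, and 162 and 559 CPM of *S100a6*. *Tcf7* went the other way there, with 633 and 790.3 CPM.

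A second division followed Treg genes that the rule did not read. A UMI of *Il2ra*, *Ikzf2* or *Ctla4* was missing from 467 of the 568 members labelled WT and 190 of the 269 labelled dKO and present in the rest. In the rest *S100a6* had 373 and 510.2 CPM, against 60.9 and 126 CPM in the other members. *Tnfrsf4* had 194 and 678 CPM against 24.9 and 81.6 CPM. *Capg*, an actin-capping protein on the Treg list, had 194 and 196 CPM against 31.4 and 43.9 CPM, and *Igfbp4* had 325 CPM in both libraries against 528 and 691 CPM. *Tcf7* had 619 and 499 CPM against 570.0 and 753 CPM, and *S1pr1* had 351 and 297 CPM against 365 and 399 CPM, so *Tcf7* labelled WT went the other way from *Igfbp4*. Whether the members with a UMI of a Treg gene are Tregs whose *Foxp3* was missed was not tested.

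The T cell receptor reads were not used by the rule. The cells that it excluded stay among the other T cells, however, so the comparison of clonotypes is not independent of it. At least 1 contig was found in 310 (54.6%) of the members labelled WT and 108 (40.1%) of those labelled dKO, and both chains in 178 and 46. In the other T cells contigs were found in 44.7% and 36.5%. A clonotype is a pair of TRA and TRB chains with the same V and J segments and the same nucleotide sequence of the third complementarity-determining region (CDR3), the part of the receptor formed by joining the segments. Of the members with both chains, 175 of 178 (98.3%, 95.2 to 99.7) labelled WT and 41 of 46 (89.1%, 76.4 to 96.4) labelled dKO had a clonotype of 1 cell. In the other T cells the shares were 54.3% of 1772 cells and 47.3% of 2012 cells, below both intervals. No clonotype was held by 2 members, and none was shared between the libraries.

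To show how different the receptors of single members were, the CDR3 of TRA (chromosome 14) and of TRB (chromosome 6) is printed 5′ to 3′ for the 4 members with most UMIs of *Ccr7* and *Lef1* among those with a clonotype of 1 cell, 2 in each library. Capitals mark the codon of the conserved cysteine at the start and the codon of the closing phenylalanine or tryptophan.
WT member 1, TRAV6N-7 with TRAJ37: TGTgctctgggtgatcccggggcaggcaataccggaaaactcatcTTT
WT member 1, TRBV12-2 or TRBV13-2 with TRBJ2-4: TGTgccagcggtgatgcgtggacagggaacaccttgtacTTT
WT member 2, TRAV5D-4 with TRAJ31: TGTgctgcaaacaataacagaatcttcTTT
WT member 2, TRBV2 with TRBJ2-3: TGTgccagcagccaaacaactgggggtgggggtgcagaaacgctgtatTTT
dKO member 1, TRAV14-1 with TRAJ34: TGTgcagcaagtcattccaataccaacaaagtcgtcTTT
dKO member 1, TRBV12-2 or TRBV13-2 with TRBJ1-1: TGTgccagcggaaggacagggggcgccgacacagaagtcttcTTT
dKO member 2, TRAV14N-3 with TRAJ17: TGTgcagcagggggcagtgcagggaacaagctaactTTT
dKO member 2, TRBV31 with TRBJ1-1: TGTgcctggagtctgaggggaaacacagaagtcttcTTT
The first of them had 11 UMIs of *Ccr7* and 8 of *Lef1*, and the 4 TRA sequences run from 30 to 48 bases and the TRB sequences from 39 to 51 bases. Over all members with a TRB contig the CDR3 had a mean of 41.0 bases labelled WT (SD 4.21 over clonotypes) and 40.8 bases labelled dKO (SD 3.71), against 41.8 and 41.3 bases in the other T cells.

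**Figure D4:**
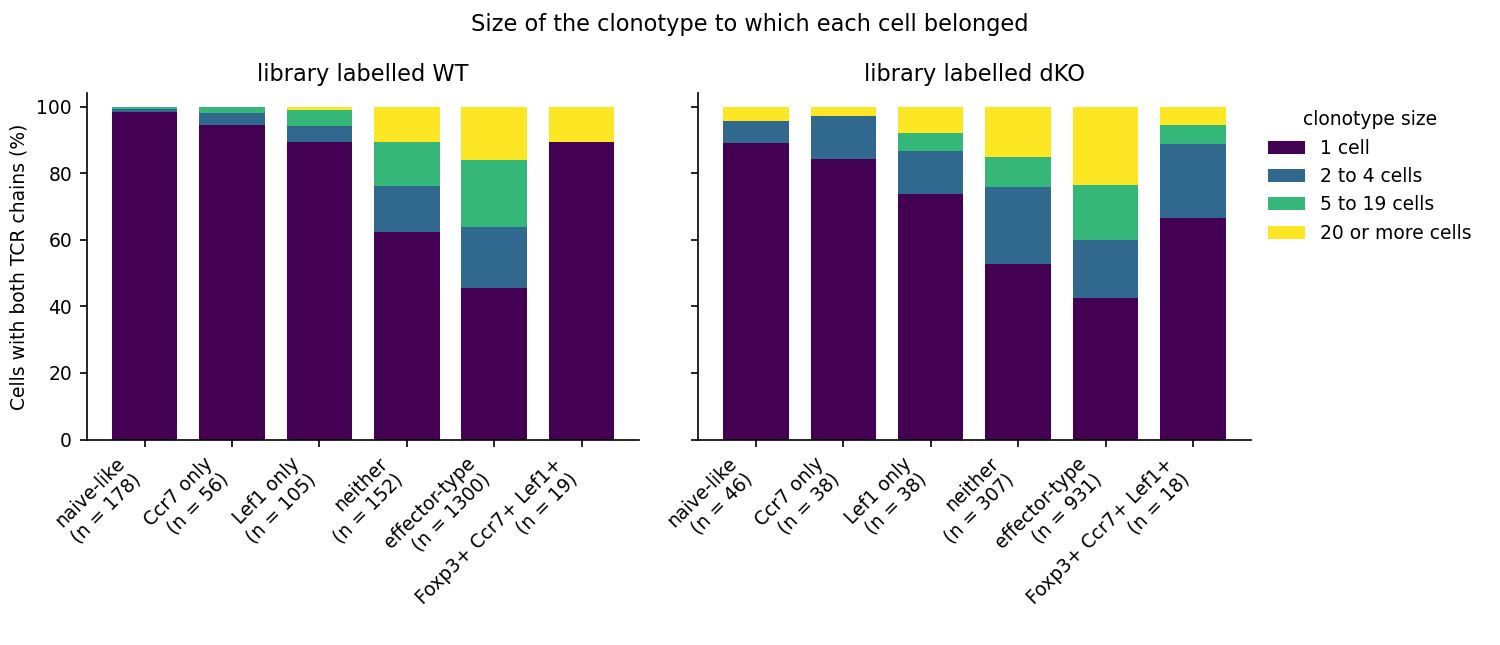
Stacked bars give, for each set of T cells with both receptor chains, the percent of cells whose clonotype held 1, 2 to 4, 5 to 19 or 20 or more cells of the library. The bar of the naive-like cells is almost all single-cell clonotypes, 98.3% labelled WT and 89.1% labelled dKO, and the share is lowest in effector-type cells, at 45.5% and 42.5%.

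The share of single-cell clonotypes was also graded across the sets. It was 94.6% and 84.2% in cells with *Ccr7* only, 89.5% and 73.7% in cells with *Lef1* only, 62.5% and 52.8% in cells with neither, and 45.5% and 42.5% in effector-type cells. Clonotypes of 20 or more cells held 0 of 178 members labelled WT, for which the exact interval reaches 2.05%, and 2 of 46 labelled dKO (4.35%), against 12.9% and 20.9% of the other T cells. With doublets left out, the single-cell share of the members was 98.7% and 94.1%.

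The members with a receptor found in another cell were 3 labelled WT and 5 labelled dKO, and 4 of these 8 were marked as doublets. The receptors that connect a member to the largest families are printed in the same way, since the same receptor was found in a member and in cells outside the rule.
WT clone 1, TRAV7-4 with TRAJ17: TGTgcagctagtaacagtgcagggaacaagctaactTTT
WT clone 1, TRBV3 with TRBJ1-2: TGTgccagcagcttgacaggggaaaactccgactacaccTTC
WT clone 2, TRAV9-1 with TRAJ22: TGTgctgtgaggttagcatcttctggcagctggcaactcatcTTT
WT clone 2, TRBV5 with TRBJ2-3: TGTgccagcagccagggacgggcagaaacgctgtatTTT
dKO clone 1, TRAV6-1 with TRAJ30: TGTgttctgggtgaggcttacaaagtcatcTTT
dKO clone 1, TRBV13-1 with TRBJ2-4: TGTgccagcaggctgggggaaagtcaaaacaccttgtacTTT
dKO clone 2, TRAV13D-2 with TRAJ30: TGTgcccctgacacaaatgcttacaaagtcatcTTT
dKO clone 2, TRBV10 with TRBJ1-6: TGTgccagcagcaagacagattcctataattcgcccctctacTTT
WT clone 1 held 7 cells, 5 of them effector-type, and WT clone 2 held 3 cells, 2 of them effector-type. dKO clone 1 held 281 cells, of which 112 had a *Foxp3* UMI, and dKO clone 2 held 30 cells, of which 12 had one. The members in dKO clone 1 and dKO clone 2 were both marked as doublets, and whether their receptor came from another cell in the droplet was not tested. The members in WT clone 1, WT clone 2 and dKO clone 2 had 1 UMI each of *Ccr7* and *Lef1*, so they lie at the edge of the rule, and that in WT clone 2 had 12 UMIs of *S100a6*. The remaining families with a member held 2 cells each.

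Of the V and J segments, a pair of interest for liver T cells and TRBV13-2, which was picked after its values were seen, are given. The pair TRAV11 with TRAJ18, which marks invariant NKT cells, was found in 0 of 196 members labelled WT and 0 of 57 labelled dKO with a TRA contig, for which the exact interval reaches 1.86% and 6.27%. In the other T cells it was found in 47 of 2090 (2.25%) and 53 of 2690 (1.97%). TRBV13-2, counted also where the contig was assigned to it jointly with TRBV12-2, was found in 7.53% (4.78 to 11.2) of 292 members labelled WT and in 16.0% (14.2 to 17.9) of 1578 TRB clonotypes of the other T cells. In the library labelled dKO it was found in 12.5% of each. The assignments differed: contigs given to both segments jointly were 4.11% and 5.21% of the members against 14.0% and 10.4% of the other T cells, and contigs given to TRBV13-2 alone were 3.42% and 7.29% against 1.96% and 2.08%. Among cells with a TRA contig, 2 or more were found in 9.18% of the 196 members labelled WT and 1.75% of the 57 labelled dKO, against 5.26% and 2.38% of the other T cells.

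The members were next compared between the genotypes. A gene is called here where the members of the libraries differed past 2-fold, among 3060 genes with at least 50 CPM in the higher library, and 2.12% of them were higher and 1.41% lower in the library labelled dKO. Of these calls 60.2% were higher, and 47.0% after TMM scaling. The median log2 ratio of all of them, dKO over WT, was 0.05. No naive signature gene of the 15 that passed and no homing gene of 9 was called, counts near what those shares of all genes give for lists of this size. *S1pr1* had a log2 ratio of -0.00 (-0.26 to 0.25), *Igfbp4* of 0.20 (-0.01 to 0.40) and *Tcf7* of 0.19 (0.00 to 0.38). The same genes in the other T cells had log2 ratios of -0.73, -1.55 and -1.17. *Dapl1* was 0.87 (0.53 to 1.21) in the members and -1.02 in the other T cells. *Trib2* was 0.88 (0.50 to 1.25) and 0.07, and *Cd28*, the main costimulatory receptor, was -0.65 (-0.93 to -0.37) and -0.56. The difference between these 2 sets of ratios has no replicate and was not tested.

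**Figure D5:**
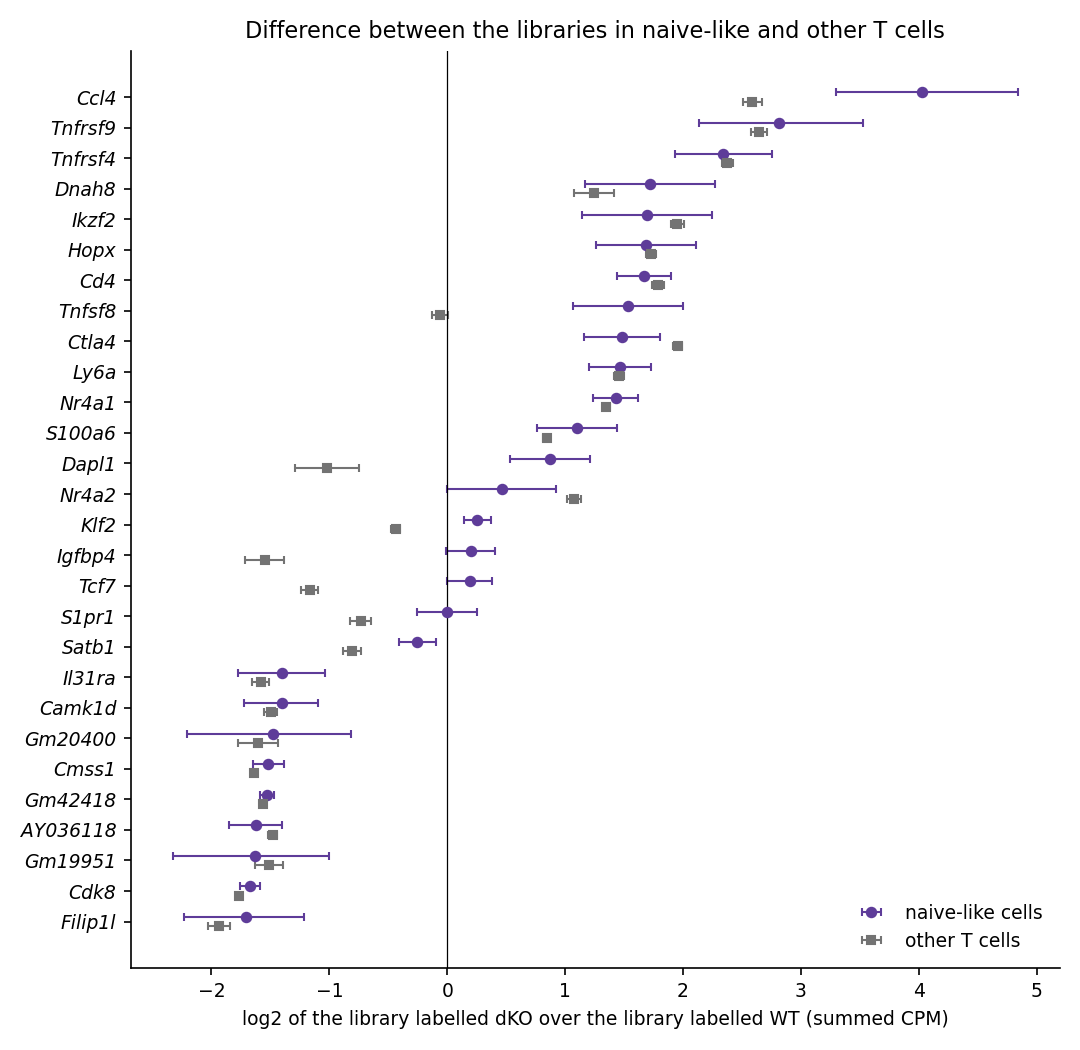
Points give the log2 ratio of CPM, dKO over WT by library label, with exact 95% intervals in naive-like cells and in the other T cells, for 19 genes at the ends of the ratio and 9 further genes. *Tnfrsf4* (2.34 and 2.38), *Cd4* (1.67 and 1.78) and *Cdk8* (-1.67 and -1.77) are alike in both sets, while *Tnfsf8* (1.53 and -0.06) and *Igfbp4* (0.20 and -1.55) are not.

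Some genes of costimulation and of Tregs were higher in the members labelled dKO, while *Cd28* and *Cd27*, with a log2 ratio of -0.04, were not. *Tnfrsf4* (chromosome 4, 156013843 to 156016612, plus strand) had 58.4 and 296 CPM, a log2 ratio of 2.34 (1.94 to 2.75). *Tnfrsf9*, the costimulatory receptor 4-1BB, had 19.2 and 135 CPM. *Ctla4* (chromosome 1, 60887000 to 60915832, plus strand), the inhibitory receptor that competes with *Cd28*, had 119.8 and 334 CPM, and *Ikzf2*, a factor of thymic Tregs, had 39.2 and 127 CPM. Of the 10 Treg markers 5 passed and 4 were called higher, and of the 8 checkpoint and costimulation genes 4 passed and 3 were called higher. The median log2 ratios of the genes that passed were 1.33 and 2.27 for these lists in the members. In the other T cells the same genes had medians of 1.79 and 2.49, so the difference was not particular to the members. Among members thinned to 1000 UMIs, *Ctla4* was found in 9.46% labelled WT and 17.6% labelled dKO, against 23.5% and 62.9% of the other T cells and 1.61% and 1.71% of the Siglech+ Cd3- cells. Without thinning those member shares were 14.96% and 25.3%. With the members that had a UMI of *Il2ra*, *Ikzf2* or *Ctla4* left out, the level of *Tnfrsf4* was 24.9 and 81.6 CPM.

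*Cd4* (chromosome 6, 124864692 to 124888221, minus strand), the coreceptor by which the cells were sorted, had 218 CPM in the members labelled WT and 694 CPM in those labelled dKO, a log2 ratio of 1.67 (1.44 to 1.90). The other T cells had 253 and 872 CPM. A *Cd4* UMI was found in 21.3% and 45.1% of thinned members, and in 38.0% and 66.9% without thinning. In the Siglech+ Cd3- cells, which also express *Cd4*, the level was 218 and 293 CPM.

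Of the 17 activation and memory genes 14 passed, 5 were called higher and none lower in the members labelled dKO. The 5 were *S100a4*, with a log2 ratio of 1.32, *S100a6* with 1.10, *Itgb1*, a chain of the fibronectin receptor, with 1.07, *Anxa2* with 1.05 and *Cxcr3*, a chemokine receptor of Th1 cells, with 1.35. In the other T cells *S100a4* was at 0.07, *S100a6* at 0.84, *Itgb1* at -0.61, *Anxa2* at -0.06 and *Cxcr3* at -0.05. *Cxcr3* had 22.9 and 58.4 CPM, and its ratio turned to -1.69 where members with a Treg gene UMI were left out. Of 23 effector genes 6 passed, 4 were called higher and 1, *Cd40lg*, lower, with 261 and 127 CPM. *Ccl4* is among the 4, and its call rests on 1 cell, as given below. *Ccl5* had 126 and 268 CPM, and it too turned, to a log2 ratio of -0.81, without the members with a Treg gene UMI.

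*Ccl4*, a chemokine, headed the genes that the naming rule took from the whole table, with 13.3 and 217 CPM, and 88 of its 108 UMIs labelled dKO lay in 1 cell. That cell held 4550 UMIs and 52 of the 55 UMIs of *Klk1*, a gene of plasmacytoid dendritic cells, and was not marked as a doublet. Without it *Ccl4* had 40.6 CPM and a log2 ratio of 1.61 (0.62 to 2.61). That level is below the filter of 50 CPM, so the call of *Ccl4* as higher rests on that cell. *Tnfrsf4*, *Tnfrsf9* and *Ctla4* had no UMI in that cell.

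*Tnfsf8*, the ligand of CD30, had 56.9 and 165 CPM, a log2 ratio of 1.53 (1.07 to 2.00), while the other T cells were at -0.06. *Socs3*, an inhibitor of interleukin 6 signals, had 85.0 and 213 CPM and a log2 ratio of 1.33 (0.93 to 1.72) against 0.44 in the other T cells, and it was the only gene called among the 14 cytokine receptor and survival genes that passed. *Hopx*, a cofactor of peripheral Tregs and memory cells, had 65.1 and 209 CPM, and *Dnah8*, a dynein chain, had 39.2 and 129 CPM. *Ly6a*, an interferon-induced surface protein whose reads may be shared with related genes, had 177 and 489 CPM, with a log2 ratio of 1.46 in both the members and the other T cells. *Bcl2*, the survival factor downstream of interleukin 7, had 220.4 and 296 CPM, a log2 ratio of 0.42 (0.13 to 0.71), against -1.01 in the other T cells.

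At the lower end the members and the other T cells had nearly the same ratios. *Cdk8* (chromosome 5, 146231230 to 146302874, plus strand), a kinase of the Mediator complex, had 7582 CPM labelled WT and 2381 CPM labelled dKO, a log2 ratio of -1.67 in the members and -1.77 in the other T cells. *Gm42418* (chromosome 17, 39846958 to 39848788, plus strand) had 14882.5 and 5157.6 CPM. *AY036118* lies within it on the other strand (39847113 to 39848035) and had 1158 and 376 CPM, and both overlap ribosomal RNA sequence. Whether the counts of *Cdk8* come from its own mRNA was not tested. *Filip1l*, *Gm19951*, *Cmss1*, *Gm20400*, *Camk1d* and *Il31ra* were also at that end, with log2 ratios of -1.40 to -1.70. Of the 16 quiescence regulators *Btg2* was the only one called, with 549 and 219 CPM and log2 ratios of -1.32 in the members and -1.36 in the other T cells.

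Of 18 immediate early genes that passed, *Nr4a1* alone was called, and *Nr4a3* was at 0.24 (-0.13 to 0.60). The level of *Nr4a1* labelled dKO was higher in each neighbouring set than in the members, 928 CPM in members against 1048 CPM with *Ccr7* only, 1593 CPM with *Lef1* only and 1659 CPM in effector-type cells. A *Nr4a1* UMI was found in 24.7% and 39.8% of thinned members and 41.0% and 59.7% of thinned other T cells. Of 19 receptor complex genes only *Cd4* was called, and of 11 interferon genes only *Ly6a*. No gene of glycolysis was called among 8. Of 4 cell cycle genes that passed, *Mki67* and *Top2a* were called higher. For *Mki67*, 17 of the 35 UMIs labelled WT and 10 of the 26 labelled dKO lay in 1 cell each. For *Top2a*, 8 of the 26 UMIs labelled WT and 14 of the 27 labelled dKO did. Without its top cell labelled dKO, each gene would fall below the filter of 50 CPM, so each call rests on 1 cell.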

How the data were processed

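The authors deposited a matrix of raw UMI counts (genes by cells) per library from Cell Ranger 7.0.1 and mm10, without normalization, and tables of assembled TCR contigs with UMI counts, segments and CDR3 sequences, joined here by barcode within a genotype label. Deposited totals were 10602 and 17645 cells with 23494155 and 37966611 UMIs, and no cell had fewer than 500 UMIs. The cell filter of the rule (over 200 genes, under 5% mitochondrial UMIs) was applied first.

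The UMIs of all cells in a set were summed and divided by all its UMIs to give CPM. The tools were matplotlib 3.10.9, scanpy 1.11.5, scipy 1.17.1, pandas 2.3.3 and numpy 2.4.6 under Python 3.11.15, with seed 1. edgeR 4.0.16 in R 4.3.3 gave TMM factors alone. With 1 library per genotype no test was run, and a gene is called past 2-fold at 50 CPM or more. Genes named from the whole table were the 10 at each end. For naive-like against other T cells they had the same sign in both libraries and were ranked by the smaller log2 ratio. For dKO against WT they had at least 100 CPM in a library and 10 UMIs in the lower one. TCR, immunoglobulin, mitochondrial, ribosomal protein and rule genes were left out. Values of 4 genes are not reported here. The members and the gene lists were chosen with earlier results of these data known. Positions are from GENCODE M21 (GRCm38), which held 32235 of 32285 gene IDs.

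For doublets, Scrublet marked 0 cells in both libraries at its automatic threshold. The highest scores were therefore marked, at 0.8% per 1000 cells, together with cells with at least 2 TRB chains, and the marked cells were kept in the reported values. The alternatives were thinning of each cell, other denominators and rules, removal of marked cells, the mean of each cell's CPM, TMM scaling, a filter of 20 CPM and other definitions of a clonotype. In simulated data the computation recovered the direction of 200 of 200 changed genes in each comparison, and its intervals covered 96.5%, 96% and 94.5% of their true ratios, in the order naive-like over other T cells labelled WT, the same labelled dKO, and dKO over WT. The simulated counts held no differences between cells, as the intervals assume, so this checks the computation and not the spread in these data.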

Additional observations from a re-analysis of the deposited data

Results flagged for a closer look

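In 3 genes the difference between naive-like and other T cells had opposite signs in the libraries, each with an interval that did not reach 0. *Cd27*, a costimulatory receptor, had a log2 ratio of 0.95 labelled WT (101.3 CPM in members, 52.6 CPM in other T cells) and of -1.02 labelled dKO (98.6 and 199.6 CPM). *Fos*, a subunit of AP-1, had -0.16 labelled WT (382 and 427 CPM) and 0.48 labelled dKO (491 and 351 CPM). *Ier2*, an immediate early gene, had -0.18 labelled WT (392 and 445 CPM) and 0.52 labelled dKO (423 and 295 CPM). With 1 library per genotype these differences between the libraries were not tested.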

How the results depend on the processing

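No paired analysis was possible because each genotype has 1 library. The share of naive-like cells was 7.63% labelled WT and 2.35% labelled dKO. It was 4.69% and 1.71% at 1000 UMIs per cell, 9.42% (WT) at 2000 UMIs, 5.38% and 1.54% of all filtered cells, 6.39% and 1.91% with at least 3 UMIs of *Ccr7* and *Lef1*, 6.27% and 1.66% without *Il2ra*, *Ikzf2* or *Ctla4* UMIs, and 9.47% and 2.86% with a TRB contig for the *Cd3* UMI. With a filter of 20 CPM, 98 genes were higher and 425 lower in naive-like cells, and 255 higher and 203 lower labelled dKO, where more genes were tested. Between genotypes, 64 genes were higher and 71 lower in members without a Treg gene UMI, against 65 and 43 in all members. The higher share of these calls was 47.4%, against 60.2%. In members with a TRB contig 155 were higher and 139 lower. Fewer cells were counted in both alternatives. Without Treg gene UMIs *Cxcr3* turned to -1.69 and *Ccl5* to -0.81. Against cells with neither *Ccr7* nor *Lef1*, *Mki67* (0.26), *Top2a* (0.17) and *Pclaf* (0.58) turned in the library labelled dKO. The cause was not tested for these. The share of members with a clonotype of 1 cell was 96.9% (WT) and 90.7% (dKO) by TRB alone, and 96.8% and 95.4% by the deposited clonotype number. With doublets left out it was 98.7% and 94.1%. TMM scaling shifted naive-like over other T cells by 0.20 (WT) and 0.12 (dKO), and dKO over WT by -0.08. Totals without ribosomal protein UMIs, and the set without the member richest in *Ccl4*, were added after the data were seen. No value has a replicate, and at 6.04 CPM for 3 UMIs low genes of the members labelled dKO could not be read.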
